A study of Mus musculus with 6 samples.

Results

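Elastic fibre genes were followed through the endothelial cells, pericytes and astroglia of single-cell RNA libraries from adult mouse brain. The 8 genes were Eln, Fbn1, Fbln5, Fbln2, Lox, Emilin1, Ltbp4 and Mgp, of 32285 genes in the files. They are a list of symbols chosen by measured values of these libraries: the raw counts and the shares of positive cells, in particular how few cells carried Eln and how Fbln5 differed between groups in astroglia. The levels of the members by class, library and group are therefore described without a test. Of the members only Ltbp4 is tested, between arterial-gated and other endothelial cells of the same library. That split was not among those values, but its markers, like the members, were chosen with earlier results of these data known.

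An elastic fibre is a core of cross-linked elastin laid onto a scaffold of fibrillin microfibrils, with fibulins and other adaptor proteins that join the parts. In arteries the fibre lets the wall stretch and recoil, and most of it is made by smooth muscle cells and fibroblasts, with some from endothelium. Latent TGF-beta binding proteins tie the matrix to TGF-beta signalling, and matrix Gla protein keeps vessel walls from calcifying.

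The 6 libraries form 3 groups of 2, all from mice aged 8 to 12 weeks with floxed alleles of Gja1, which encodes connexin 43 (Cx43), a gap junction protein. The groups are labelled Cx43ECiKO (titled Vecad), Cx43GlastiKO (titled Glast) and, as controls, Cx43flox/flox (titled CT), written below as ECiKO, GlastiKO and control. Tissue of the cortex and the subventricular zone, the wall of the ventricle where neural stem cells persist, was digested (30 minutes, 37 degrees), and cells without CD45 were sorted into endothelial cells (CD31+, Glast-) and neural stem and progenitor cells (Glast+, CD31-), and libraries were made with a 10x 3′ kit. The labels call the libraries of a group biological replicates and say neither whether animals were pooled nor which sorted fraction entered which library.

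Marker genes assigned 5998 of 7433 cell barcodes to a class: 1715 were endothelial, 109 pericyte, 988 astroglial and 3038 oligodendrocyte, and in each of these classes all 10 of the class's own markers were detected in every library with at least 10 such cells. No cell was assigned to smooth muscle and 9 were assigned to fibroblasts, so the cells best known for making elastic fibres are hardly represented among the assigned cells. The 325 barcodes without a class held Mgp at 1423 CPM (11 barcodes of control replicate 1) and 1361 CPM (14 of GlastiKO replicate 1), and Fbln2 at 137 CPM (41 of GlastiKO replicate 2), and whether smooth muscle cells were among them was not tested. CPM are the UMIs of a gene per 1000000 UMIs of the summed cells. The libraries numbered 1 were 90.9% to 97.1% endothelial, and those numbered 2 were 0.879% to 5.51% endothelial, with nearly all of the astroglia and oligodendrocytes. The libraries held 1735247 to 14859187 unique molecules (UMIs), and 5 of 7428 distinct barcodes occurred in more than 1 library. Gja1 stood at 234 and 206 CPM in endothelial cells of the libraries labelled ECiKO, 144 and 131 CPM in those with the GlastiKO label, and 93.1 and 109 CPM in control. In astroglia of replicate 2 it stood at 2530 CPM in the library labelled ECiKO, 2437 CPM in that labelled GlastiKO and 2553 CPM in control. The targeted gene was thus lower in neither class that the labels name, and whether the counted 3′ end lies inside the deleted part is not given in the sources used here. The knockout groups are therefore named below by their labels only.

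In each class the level of a gene is its CPM in the sum over the cells of that class in 1 library. Libraries with fewer than 10 cells of a class are left out of ranges. CPM from 3′ ends do not depend on transcript length. Ltbp4 and Mgp were the members with most UMIs in all barcodes, 3921 and 2569. Fbln2 had 269, Eln 243, Fbln5 237, Emilin1 60, Fbn1 59 and Lox 23.

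For Ltbp4 and Fbln5 the stretch just before the annotated gene is shown, because nearly all Ltbp4 UMIs lay in endothelial cells, whereas Fbln5 differed in level between the astroglia of the libraries. The sequences are from RefSeq on GRCm38.p6, minus strand, 5′ to 3′, at chr7:27337693-27337862 for Ltbp4 and chr12:101819120-101819369 for Fbln5, with motif matches in capitals.
Ltbp4: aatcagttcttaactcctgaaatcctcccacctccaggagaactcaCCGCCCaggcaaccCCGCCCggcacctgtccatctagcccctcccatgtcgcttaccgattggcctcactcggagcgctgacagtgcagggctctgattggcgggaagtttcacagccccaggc
Fbln5: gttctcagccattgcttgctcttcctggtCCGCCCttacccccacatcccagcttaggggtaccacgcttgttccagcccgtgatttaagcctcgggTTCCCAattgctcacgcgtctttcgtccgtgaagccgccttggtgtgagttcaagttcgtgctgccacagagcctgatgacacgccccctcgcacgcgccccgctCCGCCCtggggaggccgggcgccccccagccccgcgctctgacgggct
Both windows held 2 matches to GGGCGG (in capitals as CCGCCC), the GC-box letters bound by Sp-family factors, which occur in 32.7% of all 32851 promoter windows of that table. The Fbln5 window also held 1 match to TGGGAA (in capitals as its reverse complement), a core of sites of the Notch-pathway factor RBPJ that 21.6% of windows hold. Neither window held TATAAA (12.4% of windows) or TGACTCA (4.46%), and all searches covered both strands. The windows were 60.6% and 65.2% G or C, with 8 and 21 CpG. Their lengths, 170 and 250 bases, are shorter than the windows behind these shares. RefSeq windows were matched for 5 of the 8 members.

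Eln encodes tropoelastin, the monomer of the elastin core, and lies on chromosome 5 (134702593 to 134747323, minus strand, GRCm38). Endothelial cells held 174 of its UMIs, in 77 of 1715 cells, or 4.49%. In the libraries labelled ECiKO there were 15 UMIs in 12 of 398 cells of replicate 1 and 0 UMIs in 22 cells of replicate 2, which allows a share of cells with a UMI of up to 13.6%. In those labelled GlastiKO there were 43 UMIs in 18 of 452 cells and 4 UMIs in 4 of 66 cells. Controls had 89 UMIs in 40 of 731 cells and 23 UMIs in 3 of 46 cells. Of those last 23 UMIs, 20 lay in a single cell.

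As levels, Eln stood at 11.8 CPM in ECiKO replicate 1, at 27.3 and 18.7 CPM in the GlastiKO-labelled libraries, and at 33.9 and 192 CPM in control. The 95% Poisson intervals, which cover counting error only, were 6.61 to 19.5 CPM in ECiKO replicate 1 and 27.3 to 41.8 CPM in control replicate 1. The second ECiKO library, at 0 of 38826 endothelial UMIs, allows up to 77.3 CPM and so bears little on the comparison. The median endothelial cell of replicate 1 had 2843 UMIs in the library labelled ECiKO, 3209 in that labelled GlastiKO and 3466 in control. After each cell was thinned to 1000 UMIs the expected shares were 1.35%, 1.85% and 2.30%, against 3.02%, 3.98% and 5.47% unthinned in the same order, with 61, 27 and 49 shallower cells left out. The order of the libraries was the same in both.

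No Eln UMI was found in 109 pericytes, which allows a share of cells with a UMI of up to 2.75%, or in 3038 oligodendrocytes, which allows up to 0.0987%. These limits are for cells with a UMI at the depth of these libraries, not for cells that express the gene. The oligodendrocytes serve as a class expected to lack the gene, and their median depth in the second libraries was 773 UMIs (ECiKO), 17556 (GlastiKO) and 15785 (control). Astroglia did carry Eln: 1 UMI in 157 cells of ECiKO replicate 2, 19 UMIs in 17 of 412 cells of GlastiKO replicate 2, and 19 UMIs in 16 of 408 cells of control replicate 2. The astroglial shares were 0.637% (0.0161 to 3.50), 4.13% (2.42 to 6.52) and 3.92% (2.26 to 6.29) in that order, with Clopper-Pearson 95% intervals. At 976, 4608 and 3743 UMIs per median cell, the library labelled ECiKO was the shallow one, and 80 of its 157 astroglia fell under 1000 UMIs. Astroglial positives had at most 2 Eln UMIs each, whereas endothelial positives reached 14 and 20 in the control libraries.

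**Figure D1:**
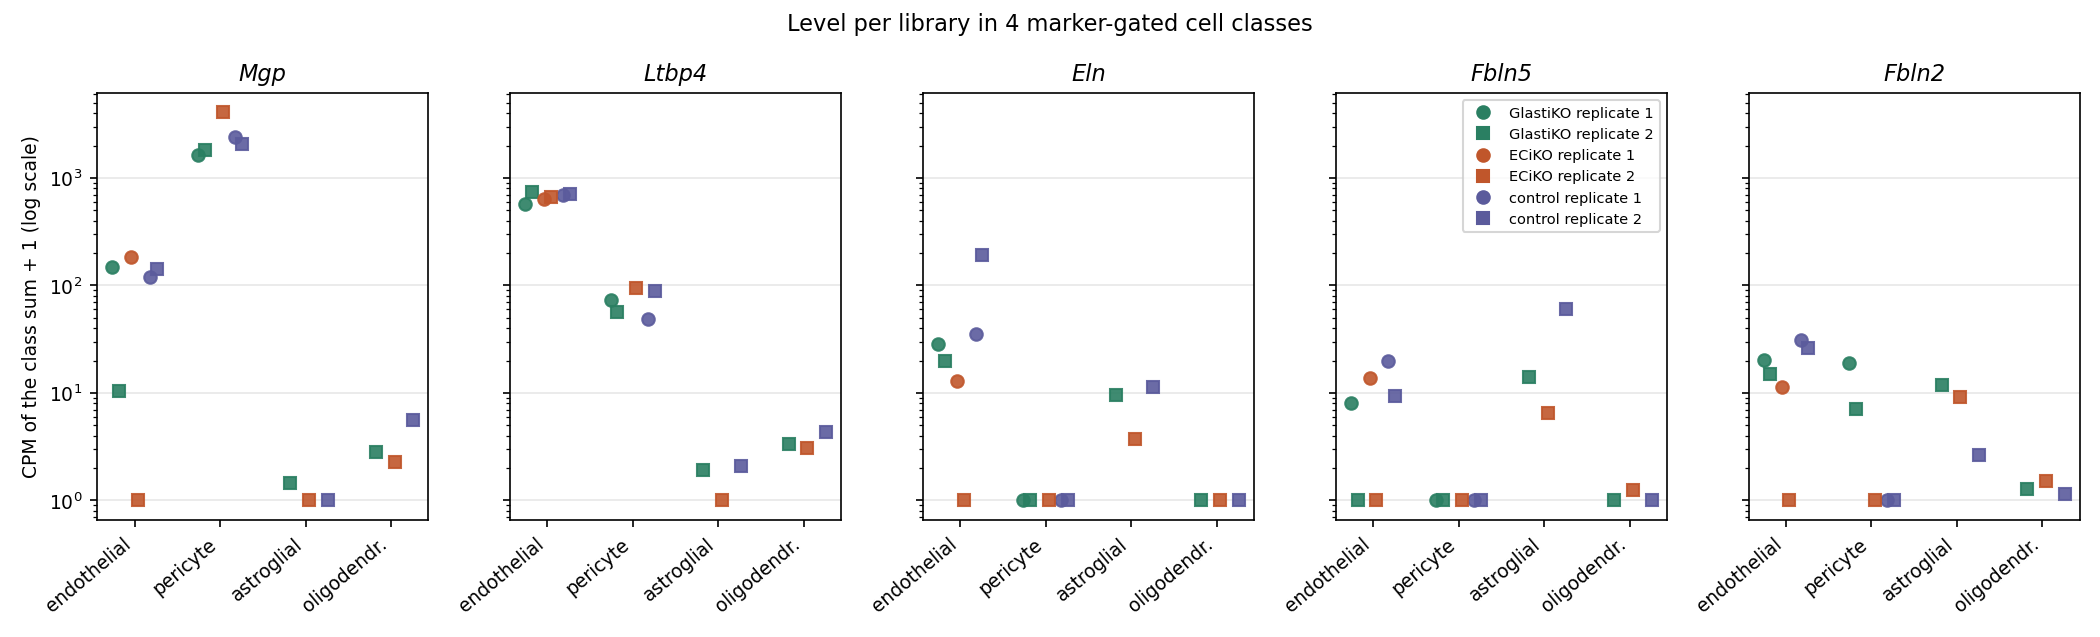
Level of 5 members in 4 cell classes. The y axis is the CPM of the class sum plus 1 on a log scale, each point is 1 library with at least 10 cells of the class, and colours and shapes give group and replicate. Mgp peaks in pericytes and Ltbp4 in endothelial cells, while Eln is at 0 in all pericyte and oligodendrocyte sums.

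Fbn1 encodes fibrillin 1, the main protein of the adult microfibril. It was scarce in endothelial cells, pericytes and astroglia. Endothelial cells held 1 UMI and 0 in the libraries labelled ECiKO, 1 and 1 in those labelled GlastiKO, and 6 and 0 in control. All 6 of the control UMIs lay in arterial-gated cells, defined below. In astroglia there were 0 UMIs in ECiKO replicate 2, 14 in 11 cells of GlastiKO replicate 2 and 2 in 2 cells of control replicate 2. Pericytes held none in 109 cells. Of the 9 fibroblast-gated cells, the 4 of control replicate 2 held 7 Fbn1 UMIs in 3 cells, more than the 46 endothelial cells of that library, which held 0.

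Fbln5, fibulin 5, guides elastin onto microfibrils and lies on chromosome 12 (101746565 to 101819055, minus strand). Endothelial cells that carried it were rarer than Eln-positive ones and their counts were concentrated: 16 UMIs in 2 cells of ECiKO replicate 1, 15 of them in 1 cell, 11 UMIs in 3 cells of GlastiKO replicate 1, and 49 UMIs in 8 cells of control replicate 1. The second libraries added 0, 0 and 1 UMI. No UMI was seen in 109 pericytes. All 8 positive control cells of replicate 1 were arterial-gated and all 8 also carried Mgp and Fbln2, and 7 of them carried Eln.

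Astroglia held 140 Fbln5 UMIs in 70 of 988 cells, and the level differed between the 3 libraries that held most of them. There were 2 UMIs in 2 of 157 cells of ECiKO replicate 2, 29 UMIs in 23 of 412 cells of GlastiKO replicate 2, and 108 UMIs in 44 of 408 cells of control replicate 2. The levels were 5.45 CPM (0.660 to 19.7) in ECiKO, 13.1 CPM (8.77 to 18.8) in GlastiKO and 58.8 CPM (48.2 to 70.9) in control. With 1 library per group holding astroglia there is no replicate, no test, and the intervals cover counting error only. Control stood highest, and its interval overlapped neither of the others, while those of ECiKO and GlastiKO overlapped.

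The share of astroglia with a Fbln5 UMI was 1.27% (0.155 to 4.53), 5.58% (3.57 to 8.26) and 10.8% (7.95 to 14.2) in ECiKO, GlastiKO and control, with overlapping intervals in GlastiKO and control. Thinned to 1000 UMIs the expected shares were 0.476%, 1.38% and 4.75%, with 80, 10 and 15 cells left out. Oligodendrocytes of the same libraries held 1 UMI in 1995 cells, 0 in 596 and 0 in 446, although those of GlastiKO and control were the deeper cells. The astroglial share thus stood above that of oligodendrocytes in all 3 libraries, with intervals that overlapped in ECiKO alone. Both Fbln5 and Eln were held by 2 astroglia of control and 0 of GlastiKO. Fbln5-positive astroglia numbered 44 and 23 there and Eln-positive ones 16 and 17. Whether the genes overlapped less than unrelated ones would was not tested.

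**Figure D2:**
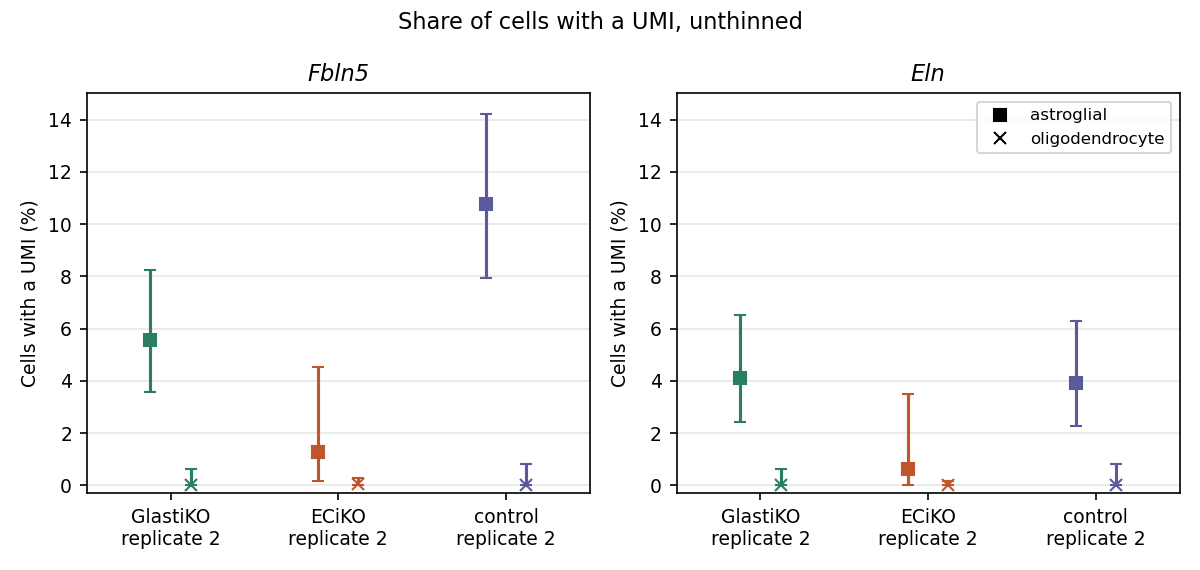
Share of cells with a UMI of Fbln5 (left) and Eln (right) in the 3 libraries that hold astroglia, in percent on the y axis, with exact 95% Clopper-Pearson bars; squares are astroglia and crosses oligodendrocytes. For Fbln5 the share is 1.27% in ECiKO, 5.58% in GlastiKO and 10.8% in control, whereas Eln is at 4.13% in GlastiKO and 3.92% in control.

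The Fbln5-positive astroglia differed from the others in which regional astrocyte genes they carried. These genes were picked after their values were seen, so they are a description. Agt, angiotensinogen, stood at 1334 CPM in positive and 478 CPM in negative cells of GlastiKO replicate 2, and at 3396 and 1655 CPM in positive and negative cells of control replicate 2. Sparc, a matricellular protein gene of astrocytes, stood at 812 CPM in positive and 325 CPM in negative cells of GlastiKO, and at 2542 CPM in positive and 1144 CPM in negative cells of control. Nkx6-2, a homeobox gene, stood at 65.3 CPM in positive against 17.8 CPM in negative cells of GlastiKO and at 349 against 127 CPM in those of control. The positive cells were also deeper, with medians of 6080 against 4537 UMIs in GlastiKO and 5052 against 3653 in control.

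The astroglia of the libraries as wholes differed in the same genes. Agt stood at 855 CPM in ECiKO, 532 CPM in GlastiKO and 1878 CPM in control. Sparc stood at 471, 356 and 1323 CPM, and Nkx6-2 at 13.6, 20.8 and 155 CPM, in that order. Lhx2, a transcription factor of telencephalic astroglia, stood at 231, 258 and 106 CPM in the same order. The control astroglia therefore held more RNA of the genes that mark Fbln5-positive cells and less of Lhx2. Genotype and the mix of astroglia cannot be told apart with 1 such library per group. Among negative cells alone, Agt was still 740 CPM in ECiKO and 478 CPM in GlastiKO, against 1655 CPM in control.

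Fbln2, fibulin 2, binds fibrillin and elastin and lies on chromosome 6 (91212455 to 91272540, plus strand). In endothelial cells it had 13 UMIs in 9 cells and 0 UMIs in the libraries labelled ECiKO, 30 UMIs in 18 cells and 3 in 2 in those labelled GlastiKO, and 78 UMIs in 36 cells and 3 in 3 in control. The levels were 10.2 CPM in ECiKO replicate 1, 19.1 and 14.0 CPM in GlastiKO, and 29.7 and 25.1 CPM in control. These 3 knockout-labelled libraries lay below both control libraries, while the second ECiKO library, at 0 UMIs, allows up to 77.3 CPM. GlastiKO replicate 2 and control replicate 2 rest on 3 UMIs each. In astroglia Fbln2 ran in another order than Fbln5: 3 UMIs in ECiKO, 24 UMIs in 16 cells (10.8 CPM, 6.94 to 16.1) in GlastiKO and 3 UMIs (1.63 CPM, 0.337 to 4.77) in control. The levels of Fbln5 and Fbln2 in astroglia thus ordered GlastiKO and control in opposite ways.

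Lox, lysyl oxidase, cross-links elastin and collagen. Endothelial cells held 1 and 0 of its UMIs in the libraries labelled ECiKO, 2 and 0 in those labelled GlastiKO and 3 and 0 in control. A single pericyte of GlastiKO replicate 1 held 4, astroglia held 2 in all, and oligodendrocytes none. Fibroblast-gated cells of control replicate 2 held 6 in 2 cells.

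Emilin1 encodes a glycoprotein at the interface of elastin and microfibrils. It was detected in 17 of 109 pericytes (15.6%), against 5 of 1715 endothelial cells (0.292%). Of the fibroblast-gated cells, 0 of 3 in ECiKO replicate 2, the single ones of both GlastiKO libraries and 1 of 4 in control replicate 2 carried it. Pericytes held 0 UMIs in both libraries labelled ECiKO, 2 and 10 in those labelled GlastiKO, and 3 and 4 in control. Those of GlastiKO replicate 2 held 10 UMIs in 8 of 29 cells where its 66 endothelial cells held 0, a level at least 4.37-fold higher with 3 UMIs as the floor. The pericytes of ECiKO numbered 5 and 11, so a count of 0 there says little.

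Ltbp4, latent TGF-beta binding protein 4, binds latent TGF-beta and fibulin 5 and takes part in elastic fibre assembly. It lies on chromosome 7 (27305136 to 27337692, minus strand). In endothelial cells it had 799 and 26 UMIs in the libraries labelled ECiKO, 904 and 159 in those labelled GlastiKO, and 1816 and 84 in control. The levels were 629 and 670 CPM in ECiKO, 574 and 742 CPM in GlastiKO, and 693 and 703 CPM in control. They overlapped between all 3 groups, and 1251 of 1715 endothelial cells (72.9%) carried a UMI. Of all Ltbp4 UMIs in the files, 3788 of 3921 lay in endothelial-gated cells.

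Mgp, matrix Gla protein, lies on chromosome 6 (136872435 to 136875823, minus strand). In endothelial cells it had 234 UMIs in 10 cells and 0 UMIs in the libraries labelled ECiKO, 230 UMIs in 23 cells and 2 UMIs in 1 cell in those labelled GlastiKO, and 310 UMIs in 27 cells and 17 UMIs in 2 cells in control. The levels were 184 CPM in ECiKO replicate 1, 146 and 9.33 CPM in GlastiKO, and 118 and 142 CPM in control. A few cells set these levels: 1 cell held 150 of the 234 UMIs in ECiKO, 94 of 230 in GlastiKO replicate 1 and 77 of 310 in control replicate 1. The top 3 cells of replicate 1 held 85.0% of the UMIs in ECiKO, 59.1% in GlastiKO and 50.3% in control.

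**Figure D3:**
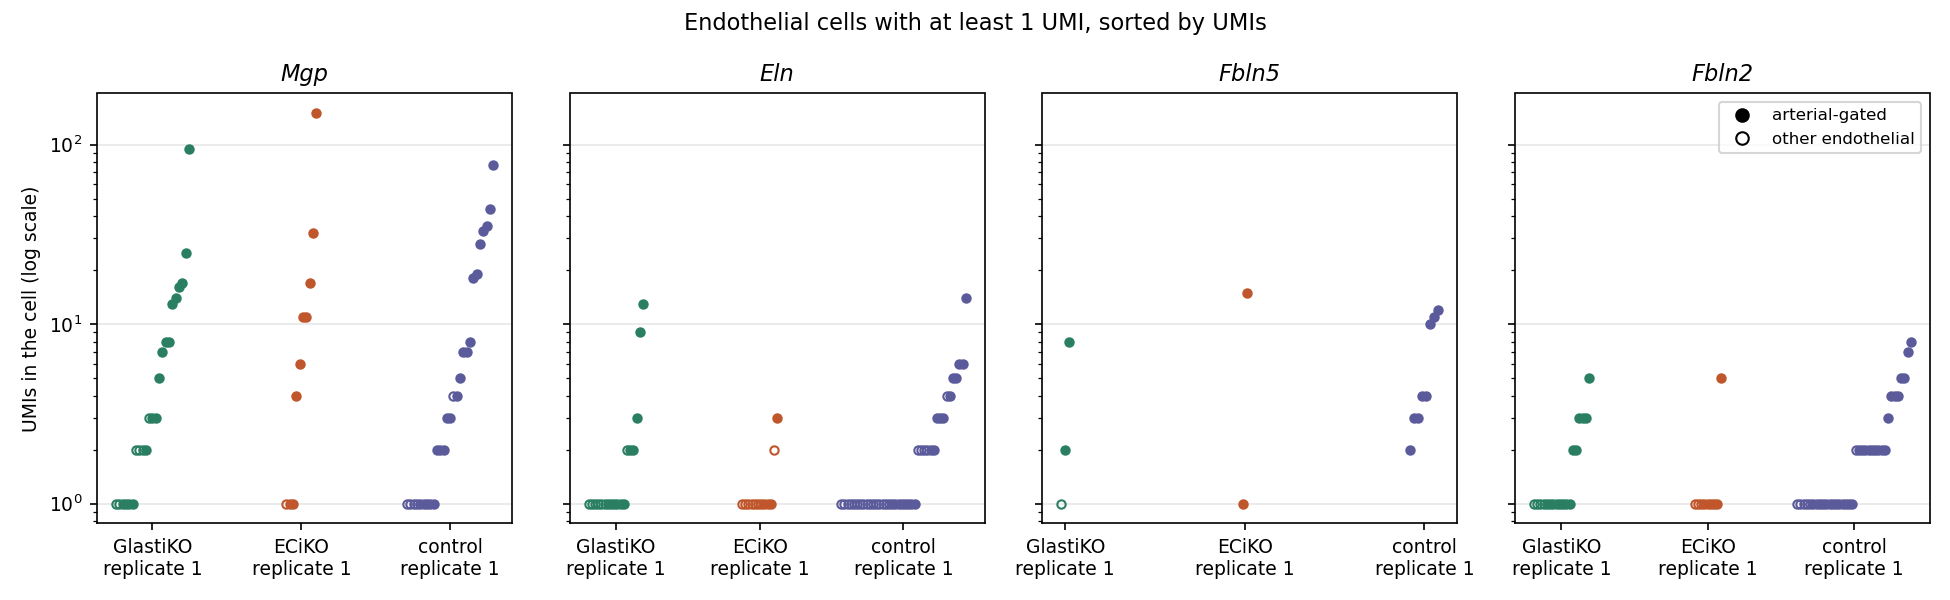
UMIs of Mgp, Eln, Fbln5 and Fbln2 in each positive endothelial cell of the first library of each group, sorted within a library. The y axis is UMIs per cell on a log scale, filled circles are arterial-gated cells and open circles other endothelial cells. The highest Mgp cells hold 150 UMIs in ECiKO, 94 in GlastiKO and 77 in control, and most Eln cells hold 1.

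Between groups, UMIs of endothelial cells were summed per library and compared with edgeR's quasi-likelihood fit over 8708 genes, and a gene was called at an adjusted p (Benjamini-Hochberg) under 0.05. Of the 8 members, Eln, Fbln2, Mgp and Ltbp4 passed the low-count filter. The members were chosen on these same sums, so their fitted differences are given with no test. Between ECiKO and control the log2 difference (SE, 2 libraries in each group) was -1.53 ± 0.58 for Fbln2, 0.34 ± 0.32 for Mgp and -0.14 ± 0.30 for Ltbp4. Those of Fbln2 and Mgp rest on ECiKO replicate 1, since replicate 2 had 0 UMIs of both. Between GlastiKO and control it was -0.64 ± 0.48 for Fbln2, -0.23 ± 0.31 for Mgp and -0.05 ± 0.28 for Ltbp4. One library decides this value for Mgp: without GlastiKO replicate 1 it differed by -3.76 on the log2 scale, and without GlastiKO replicate 2 by 0.33. The differences of Ltbp4 were smaller than their standard errors in both comparisons.

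Over all genes, 0.23% were called between ECiKO and control (20 of 8708; 2 by DESeq2) and 0.356% between GlastiKO and control (31 of 8708; 2 by DESeq2). The number called between ECiKO and control was 6 without ECiKO replicate 1, 37 without ECiKO replicate 2, 36 without GlastiKO replicate 2 and 11 without control replicate 1. Between GlastiKO and control it was 3 without control replicate 1 and 17 without either GlastiKO replicate 1 or ECiKO replicate 1. Of 19 further elastic fibre genes (other fibulins, fibrillin 2, microfibril-associated proteins, emilins and multimerins, Lox-like enzymes and latent TGF-beta binding proteins) 2 passed the filter, and of 12 TGF-beta pathway genes 9 did. In both comparisons edgeR called 0 of these genes in either direction, which at the shares of all genes above says nothing particular about them. In the same fits the numbers of all genes with an unadjusted p under 0.05 were 131 and 157, for ECiKO and GlastiKO. The TGF-beta genes had a median log2 difference of 0.10 in ECiKO and 0.11 in GlastiKO, beside -0.03 and 0.01 over all genes tested. Simulated data of the same depth gave calls for 86% of 4-fold but 18% of 2-fold changes between ECiKO and control. The changes were put only in genes above a minimum mean level, with the same spread for every gene. These shares therefore do not hold for scarcer or more variable genes.

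Within the endothelium, Mgp, Fbln2, Eln and Ltbp4 were higher in arterial-gated cells. These are the 343 endothelial cells with at least 3 of 10 arterial markers detected and more arterial than venous ones, and no member was among the markers. As a list these markers stood at 1262 to 1467 CPM in pericyte sums and 1030 to 1283 CPM in endothelial sums, so they are not particular to endothelium. What pericyte RNA does to the gate was not tested. The 4 libraries with at least 10 cells of both kinds were ECiKO replicate 1, both labelled GlastiKO and control replicate 1, and each was compared within itself, with the library as a block. Over 8039 genes 2.81% were called higher in arterial-gated cells, and the members are given one by one. Mgp, Fbln2, Fbln5 and Eln had few UMIs in the other cells and passed the low-count filter mainly through the arterial-gated sums. Their differences are therefore given with no p, and no count over the members is given. Without that filter, over 15825 genes, the log2 differences were 6.63 for Mgp, 4.33 for Fbln2 and 2.55 for Eln. Calls in either direction numbered 418, against 155 without control replicate 1, 224 without GlastiKO replicate 1 and 214 with DESeq2.

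Mgp stood in arterial-gated against other cells at 629 against 1.11 CPM in ECiKO replicate 1, at 568 against 9.25 CPM and 29.0 against 0 CPM in the 2 GlastiKO libraries, and at 420 against 4.20 CPM in control replicate 1. The value for GlastiKO replicate 2 rests on 2 UMIs against 0, and the 0 allows up to 20.6 CPM. It was higher in 4 of 4 libraries, by 6.65 ± 0.20 on the log2 scale (SE). Within control the ratio was 100 (95% interval 50.1 to 234, counting error only). In the 3 first libraries nearly all endothelial Mgp UMIs thus lay in arterial-gated cells. In control replicate 2, with 5 arterial-gated cells and so outside the fit, 4 UMIs (211 CPM) lay in 1 arterial-gated cell and 13 (129 CPM) in 1 of the other cells.

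Fbln2 stood at 27.0 against 3.34 CPM in ECiKO replicate 1, at 67.4 against 3.36 CPM and 43.5 against 0 CPM in the libraries labelled GlastiKO, and at 98.8 against 3.68 CPM in control replicate 1. In GlastiKO replicate 2 these were 3 UMIs against 0, with the same 20.6 CPM allowed by the 0. Fbln2 too was higher in 4 of 4 libraries, by 4.35 ± 0.36 on the log2 scale (SE). Fbln5 had 16 UMIs against 0 in ECiKO replicate 1, 10 against 1 in GlastiKO replicate 1 and 49 against 0 in control replicate 1, and 0 in both kinds of cell of GlastiKO replicate 2. Its level in arterial-gated cells was at least 12.9-fold higher in ECiKO and at least 43.3-fold higher in control, taking 3 UMIs per library as the floor. Since it entered the fit through these sums alone, no p is given for it.

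Eln stood at 16.2 against 10.0 CPM in ECiKO replicate 1, at 90.8 against 6.73 CPM and 29.0 against 13.8 CPM in the libraries labelled GlastiKO, and at 84.9 against 14.7 CPM in control replicate 1. It was higher in 4 of 4 libraries, by 2.57 ± 0.32 on the log2 scale (SE). The ratio was 1.62 (0.474 to 5.09) in ECiKO replicate 1, 13.5 (6.15 to 33.7) in GlastiKO replicate 1, 2.11 (0.153 to 29.1, from 2 UMIs against 2) in GlastiKO replicate 2 and 5.77 (3.63 to 9.38) in control replicate 1. The interval included 1 in ECiKO replicate 1 and GlastiKO replicate 2. In control replicate 2, outside the fit, 1 UMI (52.7 CPM) lay in arterial-gated cells and 22 UMIs (219 CPM) in other cells, 20 of them in 1 cell. A difference of these ratios between groups was not tested.

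Ltbp4, present in most endothelial cells, had the smallest difference. It stood at 939 against 502 CPM in ECiKO replicate 1, at 763 against 513 CPM and 958 against 640 CPM in the libraries labelled GlastiKO, and at 965 against 590 CPM in control replicate 1. It was higher in 4 of 4 libraries, by 0.71 ± 0.12 on the log2 scale (edgeR adjusted p = 7.05e-05). Fbn1, Emilin1 and Lox did not pass the filter, with at most 6 UMIs in any arterial-gated sum.

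**Figure D4:**
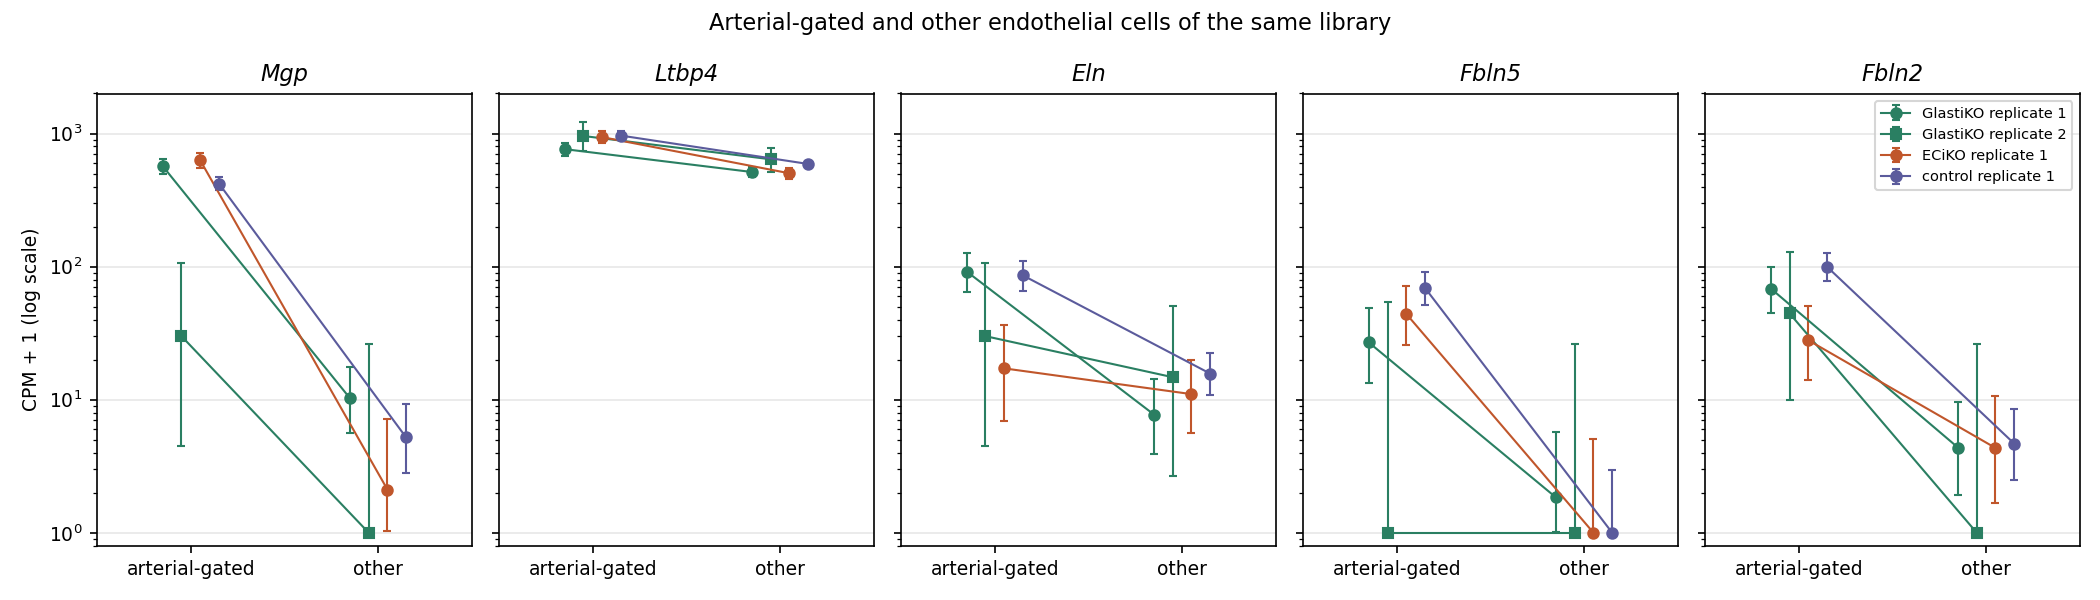
Level of 5 members in arterial-gated (left in each panel) and other endothelial cells (right), joined within a library, for the 4 libraries with at least 10 cells of both kinds. The y axis is CPM plus 1 on a log scale and bars are exact 95% Poisson intervals. Lines for Mgp and Fbln2 fall from left to right in all 4 libraries, in GlastiKO replicate 2 from 2 and 3 UMIs to 0 with wide bars, those for Ltbp4 only slightly, and Fbln5 of GlastiKO replicate 2 is at 0 on both sides.

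Looked at by cell, 90.0% of the 10 Mgp-positive endothelial cells of ECiKO replicate 1 were arterial-gated, against 18.6% of its Mgp-negative ones. In the first library labelled GlastiKO these shares were 73.9% and 16.3%, and in control replicate 1 they were 81.5% and 18.6%. For Eln the arterial-gated share of positive cells was 33.3% in ECiKO, 61.1% in GlastiKO and 47.5% in control, so many Eln-positive cells lay outside the gate. Positive cells were deeper, at 5466 against 3361 UMIs for Eln in control replicate 1, and the gate asks for detected markers, so shares of this kind grow with depth. Levels in CPM are scaled to depth but rest on the same gate. Arterial-gated cells had a median of 4574 UMIs against 2422 in the other cells of ECiKO replicate 1, and 4673 against 3114 in control replicate 1. What this does to the levels was not tested.

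Markers of mural cells were counted in the same cells. Smooth muscle markers made up 0.679 UMIs per 10000 in Mgp-positive and 1.36 in Mgp-negative cells of ECiKO replicate 1, 0.559 and 0.842 in GlastiKO replicate 1, and 1.41 and 1.11 in control replicate 1. Pericyte markers made up 0, 0.559 and 0 per 10000 in the positive cells of the same libraries, against 0.163, 0.337 and 0.176 in the negative ones. Neither marker list was higher in Mgp-positive cells of all 3 libraries. The class rule had already left out barcodes rich in mural markers, so these counts cannot decide whether mural RNA was carried over.

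Some endothelial cells held more than 1 member. In ECiKO replicate 1, 2 endothelial cells held both Eln and Mgp, which is 16.7% of Eln-positive and 20.0% of Mgp-positive cells. In GlastiKO replicate 1 Eln and Mgp shared 7 cells (38.9% and 30.4%) and in control replicate 1 they shared 13 (32.5% and 48.1%). Fbln2 and Mgp shared 3 cells in ECiKO replicate 1, 7 in GlastiKO replicate 1 and 14 in control replicate 1, the last being 38.9% of the Fbln2-positive and 51.9% of the Mgp-positive cells. Besides Mgp, Bmx and Stmn2 were among genes that stood highest in Mgp-, Eln- and Fbln2-positive cells over negative ones in all 3 first libraries. Gkn3, Sema3g and Egfl8 were among them for Mgp and Fbln2, and Vegfc for Mgp and Eln. Bmx, Gkn3, Sema3g and Vegfc are arterial markers used by the gate. Stmn2 is among the markers of the neuroblast class, and carry-over from such cells was not tested. Gkn3 for instance stood at 1312 CPM in Mgp-positive against 30.2 CPM in Mgp-negative cells of ECiKO, 425 against 34.3 CPM in GlastiKO and 1445 against 25.7 CPM in control.

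Of the further elastic fibre genes 2 of 19 passed the filter in the arterial comparison and 1 was called higher, Mmrn2 (multimerin 2, an endothelial matrix protein of the emilin family), at 0.71 ± 0.12 on the log2 scale (edgeR adjusted p = 5.60e-05). Of the 12 TGF-beta pathway genes 9 passed, 2 were called higher and 1 lower, in a comparison in which 2.81% of all genes were called higher and 2.39% lower. Tgfb2, a TGF-beta ligand, was higher by 1.27 ± 0.13 (edgeR adjusted p = 6.42e-09), Tgfbr2, the type II receptor, was higher by 0.42 ± 0.13 (0.0441), and Tgfbr3, the co-receptor betaglycan, was lower at -0.72 ± 0.14 (0.000736). The median over the 9 TGF-beta genes was -0.08, beside -0.00451 over all genes.

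Between pericytes and endothelial cells of the same library, Mgp and Ltbp4 had opposite signs. The comparison took 5 libraries with at least 10 cells of both classes, and the members, chosen on these sums, are again given with no test. Mgp stood at 4068 CPM in pericytes against 0 in endothelial cells of ECiKO replicate 2, at 1628 against 146 CPM and 1804 against 9.33 CPM in the libraries labelled GlastiKO, and at 2420 against 118 CPM and 2044 against 142 CPM in control. Of the pericytes 87 of 109 carried it (79.8%). Mgp was higher in pericytes in 5 of 5 libraries, by 4.35 ± 0.25 on the log2 scale (SE). In ECiKO replicate 2 the 0 allows up to 77.3 CPM. In pericytes of ECiKO replicate 2, 1 of 11 cells held 55 of the 87 Mgp UMIs. The 5 pericytes of ECiKO replicate 1 gave 1102 CPM, so the libraries labelled ECiKO lay on both sides of control. Those labelled GlastiKO lay below it. The 4 fibroblast-gated cells of control replicate 2 held 358 Mgp UMIs in 2 cells, or 9747 CPM, more than any pericyte sum. Fibroblast markers were seen in the pericyte sums at 289 to 923 CPM and smooth muscle markers at 234 to 778 CPM. The part of such cells in the Mgp level of pericytes was not tested.

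Ltbp4 stood at 93.5 CPM in pericytes against 670 CPM in endothelial cells of ECiKO replicate 2, at 72.4 against 574 CPM and 55.0 against 742 CPM in the libraries labelled GlastiKO, and at 47.3 against 693 CPM and 87.4 against 703 CPM in control. It was lower in pericytes in 5 of 5 libraries, at -3.46 ± 0.25 on the log2 scale (SE). Endothelial markers were seen in the pericyte sums at 577 to 733 CPM, against 23757 to 28850 CPM in endothelial cells, and their part in the Ltbp4 level of pericytes was not tested. Over all 3881 genes edgeR called 59.3%, 28% higher and 31.3% lower in pericytes, so a call by itself says little here. Among the further elastic fibre genes 1 was called higher, Efemp2 (fibulin 4), at 1.42 ± 0.44 (edgeR adjusted p = 0.00477). Mmrn2 passed the filter mainly through endothelial cells and is given with no test. It stood at 0 to 7.88 CPM in pericytes against 98.0 to 237 CPM in endothelial cells. Of 8 TGF-beta pathway genes tested, 2 were called higher, among them Itgav (integrin alpha V). The 5 called lower included Acvrl1 and Tgfbr2, the latter at -2.83 ± 0.27 (edgeR adjusted p = 1.74e-13). Acvrl1 stood at 0 to 34.9 CPM in pericytes against 309 to 471 CPM in endothelial cells. It passed the filter mainly through endothelial cells, so no p is given for it.

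In astroglia Ltbp4 was all but absent, with 0 UMIs in ECiKO replicate 2, 2 UMIs in GlastiKO replicate 2 and 2 UMIs in control replicate 2, against 670, 742 and 703 CPM in the endothelial cells of the same libraries. The astroglial level was at least 82.0-fold lower in ECiKO, and the ratio of astroglial to endothelial level was 0.00122 (0.000146 to 0.00447) in GlastiKO and 0.00155 (0.000185 to 0.00577) in control. In the fit over these 3 libraries 53.8% of 6598 genes were called (3551, against 2334 without GlastiKO replicate 2), 29.8% higher and 24.1% lower in astroglia. Of the further elastic fibre genes 3 passed the filter. Mmrn2 passed it mainly through endothelial cells and is given with no test. It stood at 0 to 2.72 CPM in astroglia against 98.0 to 176 CPM in endothelial cells. Ltbp3, a relative of Ltbp4, passed through astroglia alone and is given with no test, at 43.6 to 65.9 CPM in astroglia against 0 in the endothelial sums. Those zeros allow up to 77.3 CPM in ECiKO, 14.0 CPM in GlastiKO and 25.1 CPM in control, so in ECiKO no difference was detectable at this depth. Of 8 TGF-beta pathway genes tested, 1 was called higher (Itgav) and 6 lower, among them Tgfbr2. Itgav stood at 191 to 194 CPM in astroglia against 0 to 28.0 CPM in endothelial cells. Tgfbr2 stood at 0.544 to 2.72 CPM in astroglia against 373 to 418 CPM. Each passed the filter mainly through the class in which it was high, so no p is given for them.

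Over 15 sums of a class in a library with at least 20 cells, the genes whose log2 level correlated most with that of Ltbp4 were Cxcl12 (r = 0.997), Adgrf5 (0.996) and Clec2d (0.995), of 7626 genes. For Mgp they were Mndal (0.982), Oaz2 (0.974) and Ifi203 (0.967). For Eln, Fbln5 and Fbln2 the best values were 0.893, 0.853 and 0.874, and their counts are too sparse for an order to be read from them. Sums of 1 library share its depth, so these are descriptions.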

How the data were processed

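The authors deposited unnormalized UMI counts, 1 matrix of genes by cell barcodes per library, per the file headers. The labels' protocols name the mm10 genome and Cell Ranger, whose matrix headers give version 5.0.0, while version 2.1.1 and Seurat 4 stand in the submitters' processing notes. The 8 members and all lists were chosen with earlier results of these data known. All members are named, along with pathway genes under the adjusted threshold of 0.05, up to 6 per comparison by smallest p, and the 3 genes most like each member with at least 100 UMIs. Genes of Fbln5-, Eln-, Fbln2- or Mgp-positive cells were chosen after their values were seen.

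Barcodes were kept with at least 300 genes and at most 20% mitochondrial UMIs, which left out 1110. A barcode joined a class with at least 3 of 10 markers of the class (9 for the ependymal and choroid list) detected, and at least 2 times as many as for any other of 10 classes. That rule leaves out barcodes with mixed markers, and 325 stayed without a class. No doublet caller was run. Names of classes rest on RNA alone.

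UMIs were summed per library and class and tested by the quasi-likelihood test of edgeR 4.0.16 in R 4.3.3, with TMM scaling and the filter filterByExpr, and with DESeq2 1.42.0 beside it. An SE is the size of the log2 difference over the root of its F value and rests on a spread pooled over genes. Endothelial sums ranged from 38826 to 2622173 UMIs. Between groups, p-values rest on the spread between libraries, and with the library as a block on that of differences within libraries. Either may be partly technical. It was mostly pooled over genes, with 3 residual and 32.7 prior degrees of freedom in the arterial comparison. An SE can thus be smaller than a gene's own spread between libraries. Levels have exact 95% Poisson intervals and shares exact Clopper-Pearson intervals, both for counting error only. A count of 0 allows up to 3 counts. Thinned shares are expected values at 1000 or 500 UMIs per cell. The fits were tested on simulated data. Alternatives were DESeq2, no filter on low counts, other gates, no cell filter, each library left out, the replicate number as a block, and no library block. Gene positions are from GENCODE M21. Tests of members between groups and between classes were computed but are not reported as tests, since the members were chosen on those sums. Those of Mgp, Fbln2, Fbln5 and Eln in arterial-gated cells are not reported either, since these genes passed the filter mainly through those cells. Some genes are not reported here.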

Additional observations from a re-analysis of the deposited data

How the results depend on the processing

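Of the recomputed log2 fold changes of members, 5 changed sign, and the cause was not tested. Those between groups and between classes are values with no test. Between ECiKO and control, Mgp turned to -0.34 with DESeq2 and ranged from -9.78 (without ECiKO replicate 1, the other having 0 UMIs) to 0.65 with a library left out. Between GlastiKO and control, Mgp was -3.76 without GlastiKO replicate 1 and 0.33 without GlastiKO replicate 2, and Ltbp4 ranged from -0.15 to 0.070, turning to 0.024 without control replicate 1 and to 0.070 without GlastiKO replicate 1. In arterial-gated cells Ltbp4 was also called with DESeq2, without the low-count filter and with each library left out. Given with no test, the differences with a library left out ranged from 6.27 to 7.20 for Mgp. Those of Fbln2 ranged from 3.85 to 4.60 and those of Eln from 2.12 to 2.87. Genes called between ECiKO and control numbered 2 with DESeq2, 32 without the low-count filter and 6 to 37 with a library left out. Between GlastiKO and control they numbered 2 with DESeq2 and 3 to 39 with a library left out. In arterial-gated cells they numbered 214 with DESeq2, 193 without the library block and 155 to 496 with a library left out, in pericytes 3496 without the filter and 1847 to 2469, and in astroglia 2313 with DESeq2 and 2334 to 4143. Where 1 library of a group was left, it was assumed to vary like the other groups. Same-numbered libraries correlated at 0.0547 to 0.0804 in their deviations from the group means. With 2 libraries per group the deviations of replicates 1 and 2 mirror each other, so the same values recur for both numbers. They cannot decide whether the numbers pair the libraries. The number did go with make-up: libraries numbered 1 were 90.9% to 97.1% endothelial and those numbered 2 were 0.879% to 5.51%. The main fits between groups had no term for it. With the replicate block 35 genes were called between ECiKO and control and 44 between GlastiKO and control. Eln shares of endothelial cells of replicate 1, thinned to 1000 and 500 UMIs, were 1.35% and 0.764% in ECiKO, 1.85% and 0.992% in GlastiKO, and 2.30% and 1.22% in control. Fbln5 shares of astroglia of replicate 2 were 0.476% and 0.117% in ECiKO, 1.38% and 0.685% in GlastiKO, and 4.75% and 2.54% in control. Depth limits all statements on the second ECiKO library, whose median endothelial cell had 1031 UMIs.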
